A study of Mus musculus with 6 samples.

Results

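Transforming growth factor beta (TGF-beta) signalling was examined through 10 genes: the ligands Tgfb1, Tgfb2 and Tgfb3, the receptors Tgfbr1, Tgfbr2 and Tgfbr3, the signal transducers Smad2, Smad3 and Smad4, and the SMAD co-repressor Skil. They were chosen by name, and each was found on 1 probe set, giving 10 of the 19938 genes measured. The data are log2 expression values from Affymetrix mouse gene arrays of CCR6+ group 3 innate lymphoid cells (ILC3s) sorted from the small intestinal lamina propria of adult C57BL/6 mice. The 3 control arrays came from Tnfsf11fl/fl mice and the 3 RANKL-deficient arrays from mice with the same floxed alleles and a Cre transgene, so both groups carried floxed alleles of Tnfsf11, the gene of the cytokine RANKL, and Cre was named in the RANKL-deficient group alone. The question is how the transcripts of these cells differ when RANKL is deleted in them. An effect of Cre itself cannot be told apart from that of the deletion. Nothing in the labels tells whether a group's samples are separate mice or pools, so the p-values reflect only the scatter among these samples, part of which may be technical.

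TGF-beta ligands are secreted in a latent complex and act after release from it. The active ligand is bound by the type II receptor TGFBR2, which phosphorylates the type I receptor TGFBR1, which in turn phosphorylates SMAD2 and SMAD3; these enter the nucleus with SMAD4. In the gut, TGF-beta is known for restraining inflammation, for the differentiation of regulatory and IL-17-producing T cells, and for changing the balance between innate lymphoid cell subsets.

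No member passed the adjusted threshold of 0.05 (limma, Benjamini-Hochberg over all genes), where 0.00502% of all genes passed, which is 1 gene, the chemokine receptor Ccr2, named here after its value was seen. Among the members, the largest differences were in 2 receptors and in opposite directions. Tgfbr3 was 1.53-fold lower and Tgfbr2 1.37-fold higher in RANKL-deficient cells by their group means, with unadjusted p of 0.0227 and 0.0762 (limma; adjusted p = 0.576 and 0.635). At an unadjusted p under 0.05 there was thus 1 of 10 members, beside 8.15% of all genes. The other 8 members differed by 0.23 or less on the log2 scale. Over the 10 members the median difference, RANKL-deficient minus control, was −0.068, beside −0.054 over all genes, and the median size of the difference was 0.086, beside 0.156 over all genes. Of the members, 7 had lower and 3 had higher means in RANKL-deficient cells, and 60.5% of all genes had lower means. That share, also used below, was not matched for mean level.

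Promoters are shown for 3 members, namely 2 ligands that share a receptor but have unlike upstream sequences, and the receptor with the largest positive difference. The sequences are the 250 bases before the RefSeq start site (GRCm38.p6), read 5′ to 3′ on the strand of the gene. Capitals mark the GC box bound by SP1 (GGGCGG), the short SMAD-binding element (CAGAC) and the TATA box (TATAAA), each searched on both strands. Tgfb1 lies on the plus strand at chr7:25686752-25687001, Tgfb2 on the minus strand at chr1:186705990-186706239 and Tgfbr2 on the minus strand at chr9:116175364-116175613.
Tgfb1: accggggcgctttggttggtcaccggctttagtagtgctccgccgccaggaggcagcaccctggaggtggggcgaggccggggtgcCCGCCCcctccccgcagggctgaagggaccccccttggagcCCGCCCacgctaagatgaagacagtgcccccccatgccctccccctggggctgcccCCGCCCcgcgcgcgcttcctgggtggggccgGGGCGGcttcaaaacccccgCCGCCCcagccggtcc
Tgfb2: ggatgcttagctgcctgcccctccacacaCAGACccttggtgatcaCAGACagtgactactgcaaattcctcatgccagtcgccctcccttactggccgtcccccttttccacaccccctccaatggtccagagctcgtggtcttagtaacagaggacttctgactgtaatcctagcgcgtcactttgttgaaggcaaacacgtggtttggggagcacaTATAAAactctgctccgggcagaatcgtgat
Tgfbr2: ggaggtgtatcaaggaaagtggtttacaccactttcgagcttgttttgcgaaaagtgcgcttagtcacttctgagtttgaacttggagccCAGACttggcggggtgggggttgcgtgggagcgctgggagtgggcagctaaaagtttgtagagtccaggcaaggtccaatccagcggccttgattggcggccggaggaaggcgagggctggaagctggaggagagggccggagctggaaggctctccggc
The Tgfb1 window held 5 GC boxes and was 75.2% G and C, beside a median of 52.4% over all promoters in the table. The Tgfb2 window held a TATA box and 2 short SMAD-binding elements and no GC box. The Tgfbr2 window held 1 short SMAD-binding element and neither of the other motifs. Of 32851 promoter windows of this length, 32.7% held a GC box, 42.2% the short SMAD-binding element and 12.4% a TATA box. The palindromic SMAD-binding element (GTCTAGAC) was in 0.167% of all windows and in none of the 6 windows listed for Tgfb1, Tgfb2, Tgfbr1, Tgfbr2 and Smad3. These matches describe the letters and not occupied sites.

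The arrays and the sort were checked through array-wide measures and marker genes. Array medians were 5.15, 5.13 and 5.12 on control arrays 1 to 3 and 5.07, 5.09 and 5.10 on RANKL-deficient arrays 1 to 3. Every control median thus lay above every RANKL-deficient one. In other measures, control arrays 1 and 2 stood apart. Their mean correlations to the other arrays were 0.960 and 0.970 across genes, against 0.975 to 0.977 for the other 4 arrays. Their SD over genes was also smaller, 1.86 and 1.93, against 1.99 to 2.01 for the other 4. Control array 1 held the highest value for 5 of the 10 members. All 11 measured ILC3 and lymphoid tissue inducer markers, among them Il7r, Kit, Il23r and Ccr6, lay above the median of all genes (5.12), while 3 others of the list were not analysed here. The 8 T cell markers did not move one way, with 3 higher, 5 lower and a median difference of −0.007. Cd4 differed by 0.69, Lat by 0.51 and Cd3d by 0.26, while Cd3e differed by −0.70 and Cd3g by −1.91, and all 5 are named after their values were seen. Cd3g, the largest of these differences, measured 7.32, 6.93 and 5.82 on control arrays 1 to 3 and 5.26, 4.20 and 4.89 on RANKL-deficient arrays 1 to 3. Control means were 8.63 for Cd4 and 9.19 for Lat, against 6.60 for Cd3e, 6.69 for Cd3g and 4.96 for Cd3d. Whether Cd4 and Lat came from T cells was not tested, so the counts do not measure T cell content. Tnfsf11 was at 8.47 ± 0.26 in the control group and at 8.51 ± 0.15 in the RANKL-deficient group (SD, n = 3), and the position of its probe set relative to the floxed exons is not given in the sources used here, so it does not check the labels.

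**Figure D1:**
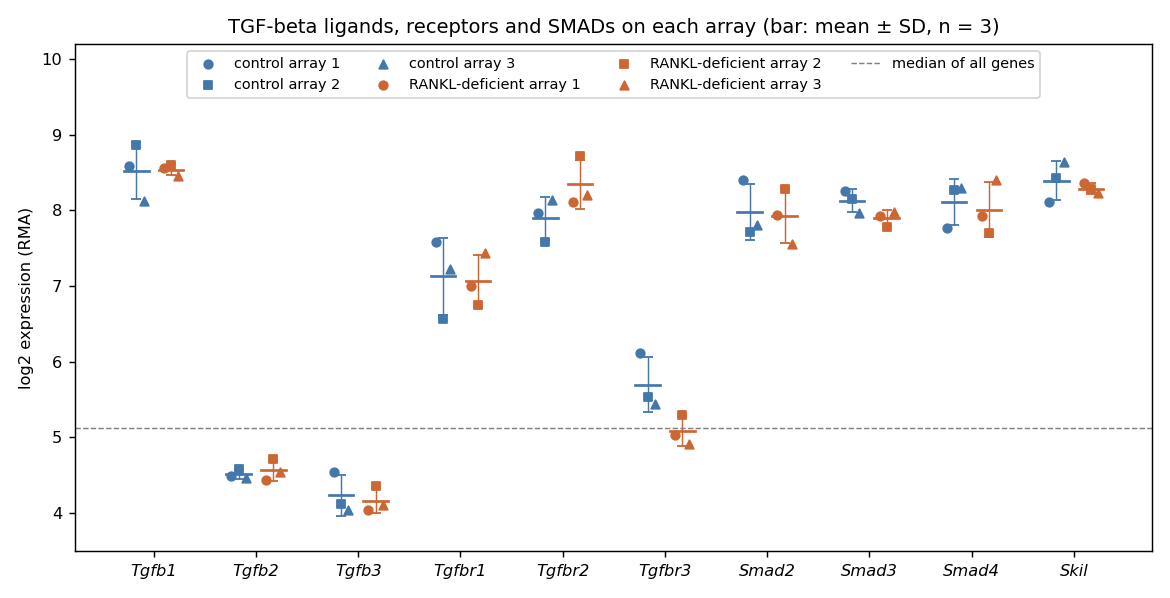
Log2 expression (RMA) of the 10 TGF-beta members on each array, with control arrays in blue and RANKL-deficient arrays in orange; horizontal bars are group means, error bars the SD of 3 arrays, and the dashed line the median of all genes (5.12). The groups separate for Tgfbr3 and overlap for the other 9 members.

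Among the ligands, Tgfb1 had nearly equal means in both groups, with an interval that spans 0. It encodes the TGF-beta isoform that predominates in immune cells. Its log2 values were 8.59, 8.87 and 8.12 on control arrays 1 to 3 and 8.56, 8.60 and 8.46 on RANKL-deficient arrays 1 to 3. The 3 RANKL-deficient arrays fell inside the range of the control arrays, which spanned 0.74, while the RANKL-deficient arrays spanned 0.15. The difference was 0.012 (SE 0.20, 95% confidence interval −0.46 to 0.48; limma, adjusted p = 0.989), and the exact permutation p, two-sided, was 0.9; with 3 arrays in each group the smallest possible is 0.1. The interval leaves room for a change of either sign within those bounds. The value depended on the control arrays: it was −0.19 without control array 3, 0.18 without control array 2 and 0.41 without control arrays 1 and 2. In bulk samples, fewer cells of a type and less RNA per cell cannot be told apart.

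Tgfb2 and Tgfb3, the isoforms best known from development, had values under that of the median gene on all 6 arrays. Tgfb2 measured 4.49, 4.58 and 4.47 in control and 4.44, 4.71 and 4.54 in RANKL-deficient cells. The RANKL-deficient arrays gave both the highest and the lowest value. The difference was 0.050 (SE 0.13, 95% confidence interval −0.25 to 0.35; limma, adjusted p = 0.921). Tgfb3 measured 4.55, 4.11 and 4.05 in control and 4.03, 4.35 and 4.11 in RANKL-deficient cells. Control array 1 was the highest of the 6, and the remaining control arrays lay among the RANKL-deficient ones. The difference was −0.071 (SE 0.18, 95% confidence interval −0.49 to 0.35; limma, adjusted p = 0.919). No background level was measured here, so whether either ligand was above background is not given by these values.

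Tgfbr3, or betaglycan, is a membrane proteoglycan that presents ligand, TGF-beta2 in particular, to the signalling receptors. It was the 1 member whose groups did not overlap. Its values were 6.12, 5.54 and 5.44 on control arrays 1 to 3 and 5.04, 5.30 and 4.92 on RANKL-deficient arrays 1 to 3. The lowest control array lay 0.14 above the highest RANKL-deficient array, and control array 1 was well above the other control arrays. The mean was 5.70 ± 0.37 in control and 5.08 ± 0.20 in RANKL-deficient cells (SD, n = 3), giving a difference of −0.61 (SE 0.21, 95% confidence interval −1.11 to −0.11; limma, adjusted p = 0.576). The exact two-sided permutation test gave p = 0.1, the smallest that this design allows. All RANKL-deficient arrays lay below all control arrays for 9.08% of genes and above them for 5.28%, so 1 of 10 members in the lower position and 0 of 10 in the higher one are near the background. Among the 4984 genes closest to Tgfbr3 when all genes are placed in 4 equal bins by mean level, 6.78% were separated in the same lower direction, and 2.81% had a difference as low as that of Tgfbr3 or lower.

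The size of the Tgfbr3 difference rested in part on the control arrays that stood apart. It was −0.40 without control array 1 and −0.35 without control arrays 1 and 2. Its unadjusted p was 0.0615 without RANKL-deficient array 1 and 0.0748 without RANKL-deficient array 3 (limma). Of 10 markers of stromal and endothelial cells, 9 had lower means in RANKL-deficient cells, beside 60.5% of all genes. At an unadjusted p under 0.05 (limma) there were 0 of these markers, beside 8.15% of all genes. The groups did not overlap for 2, both lower, beside 9.08% of all genes in that direction. The summed linear level of the 10 was 943 to 1211 on the control arrays and 814 to 849 on the RANKL-deficient arrays. Of these markers, 3 had a mean under the median gene, and Pecam1 and Dcn were the highest, at 8.11 and 8.09 in control cells. Markers of ILC1 and NK cells had a summed level of 191 to 242 and 162 to 188, with 7 of 8 lower and 7 of 8 below the median gene. Such separate sums were not particular to these lists. ILC2 markers summed to 1399 to 1471 and 1273 to 1351, and mast cell and granulocyte markers to 102 to 112 and 89 to 99. Sums were higher in RANKL-deficient cells for T cell markers, at 1255 to 1353 and 1608 to 1753. The same held for ILC3 and lymphoid tissue inducer markers, at 20516 to 21749 and 22415 to 23454. The sums of the other marker lists overlapped. All genes in the lowest of 4 equal bins by mean level had a median difference of −0.103. The part of any of these cell types in the Tgfbr3 difference was not tested.

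Tgfbr2, the ligand-binding type II receptor without which the pathway cannot signal, had the largest difference in the higher direction. Its values were 7.96, 7.58 and 8.13 in control and 8.11, 8.72 and 8.20 in RANKL-deficient cells. Control array 3 lay just above RANKL-deficient array 1, so the groups overlapped by 1 pair of arrays, and RANKL-deficient array 2 stood above the rest. The mean was 7.89 ± 0.28 in control and 8.34 ± 0.33 in RANKL-deficient cells (SD, n = 3), giving a difference of 0.45 (SE 0.22, 95% confidence interval −0.06 to 0.96; limma, adjusted p = 0.635; exact two-sided permutation p = 0.2). The difference was 0.26 without RANKL-deficient array 2, 0.30 without control array 2 and 0.21 without control arrays 1 and 2.

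Tgfbr1, the type I receptor kinase that phosphorylates the SMADs, had the widest control group of the 10 members. It measured 7.58, 6.57 and 7.23 in control and 7.0, 6.75 and 7.43 in RANKL-deficient cells. All RANKL-deficient arrays lay between the highest and the lowest control array. The difference was −0.065 (SE 0.29, 95% confidence interval −0.75 to 0.62; limma, adjusted p = 0.959). This is the widest interval among the members, so a change of up to 0.75 in the lower or 0.62 in the higher direction lies within it.

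**Figure D2:**
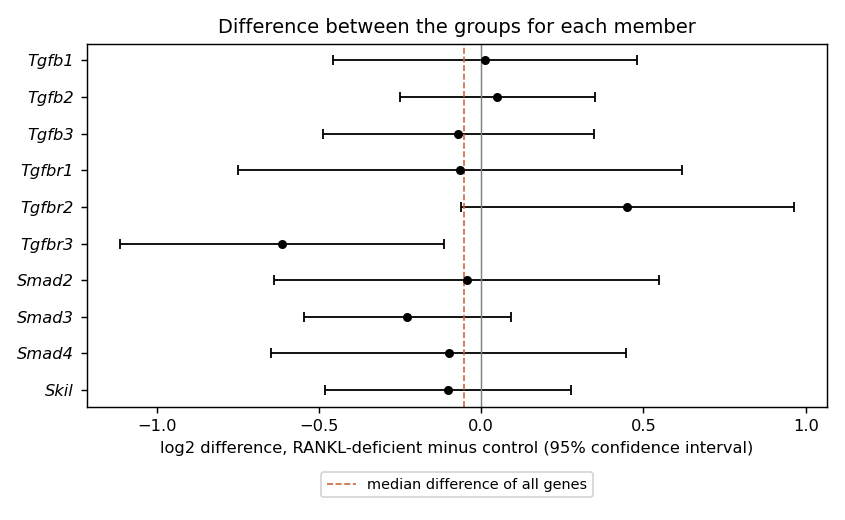
Log2 difference of each member, RANKL-deficient minus control, as points with 95% confidence intervals from limma (3 arrays in each group); the dashed line is the median difference of all genes (−0.054). The unadjusted interval of Tgfbr3 (−1.11 to −0.11) excludes 0, and those of the other 9 members include it.

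The receptor-activated SMADs and their partner showed small differences. Smad2 measured 8.40, 7.71 and 7.81 in control and 7.95, 8.29 and 7.56 in RANKL-deficient cells. The groups were interleaved, and the difference was −0.045 (SE 0.25, 95% confidence interval −0.64 to 0.55; limma, adjusted p = 0.968). Smad4, the shared partner that carries the activated SMADs to DNA, measured 7.77, 8.27 and 8.30 in control and 7.93, 7.70 and 8.41 in RANKL-deficient cells. The RANKL-deficient arrays held both its highest and its lowest value, and the difference was −0.10 (SE 0.23, 95% confidence interval −0.65 to 0.45; limma, adjusted p = 0.913).

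Smad3, a SMAD that can bind DNA directly once activated, had the next smallest p after these receptors. Its values were 8.26, 8.15 and 7.97 in control and 7.93, 7.79 and 7.98 in RANKL-deficient cells. RANKL-deficient array 3 lay just above control array 3, and the other arrays of the 2 groups were separate. The difference was −0.23 (SE 0.13, 95% confidence interval −0.55 to 0.09; limma, adjusted p = 0.686; exact two-sided permutation p = 0.2). It stayed negative in all 16 alternatives, from −0.31 with cyclic loess to −0.067 without control arrays 1 and 2. Some of these, such as the replicate block and the eBayes options, cannot change the difference.

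Skil encodes SnoN, a co-repressor that binds SMADs, is degraded on TGF-beta stimulation and is then induced as a target gene. It measured 8.12, 8.42 and 8.64 in control and 8.37, 8.28 and 8.22 in RANKL-deficient cells. Like Tgfb1, its RANKL-deficient arrays were close together (a span of 0.14) inside the control range (a span of 0.52). The difference was −0.10 (SE 0.16, 95% confidence interval −0.48 to 0.28; limma, adjusted p = 0.864). The control SD was the larger one for 7 of 10 members, beside 66.4% of all genes.

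**Figure D3:**
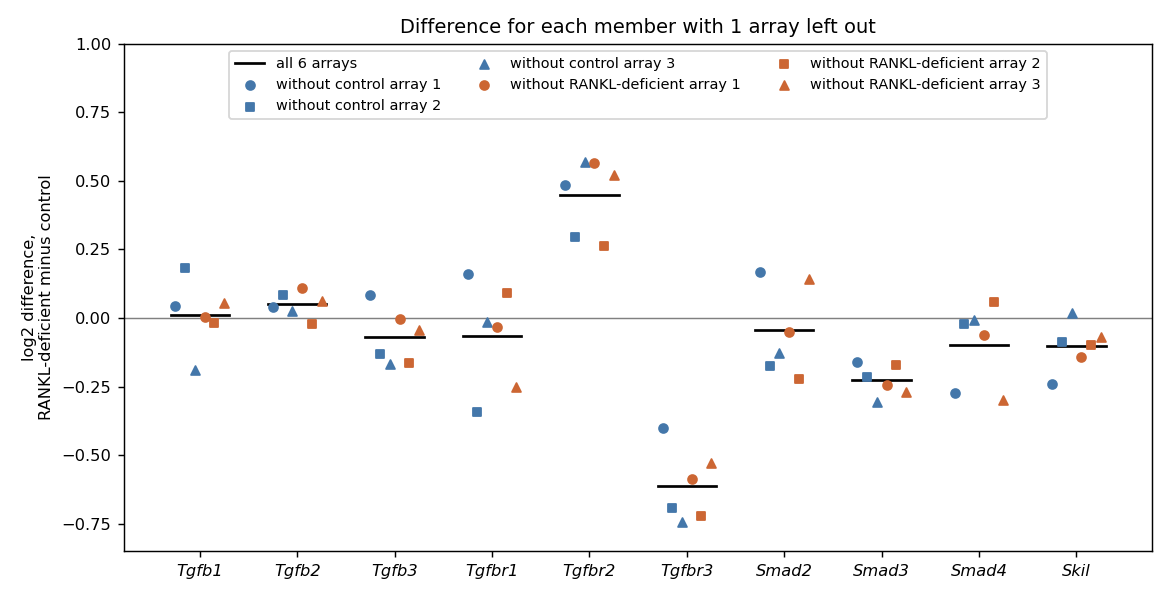
Log2 difference of each member, RANKL-deficient minus control, with all 6 arrays (black bars) and with 1 array left out (points; blue for a control array, orange for a RANKL-deficient array). Tgfbr2 (0.26 to 0.57), Tgfbr3 (−0.74 to −0.40) and Smad3 (−0.31 to −0.16) stay on 1 side of 0, and the other 7 members cross it.

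The genes whose values ran most like those of 2 members were listed over the 6 arrays. For Tgfbr3, they were Olfr1002 (Pearson r = 0.997), Impg1 (0.996), Slc19a2 (0.995), Cul4a (0.993) and Lamb2 (0.993). They had differences of −0.27, −0.48, −0.75, −0.55 and −0.24 between the groups. For Tgfb1, the member with the highest mean, they were H2aj (r = 0.997), Cpt1c (0.991), Tarbp2 (0.989), Sspo (0.984) and Spag4 (0.983). Further genes ran close to these 2 members: of 19937 genes, 182 had r above 0.95 with Tgfbr3 and 42 with Tgfb1. All of these values rest on the same 6 arrays.

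The rest of the pathway was described through 6 lists. They hold 93 genes besides the members, of which 89 were measured and 0 passed the adjusted threshold (limma, lowest adjusted p = 0.458). At an unadjusted p under 0.05 there were 10 of these 89 genes (11.2%), 5 higher and 5 lower, beside 8.15% of all genes, 4.25% higher and 3.9% lower. The groups did not overlap for 17 of the 89 (19.1%), 12 lower and 5 higher, beside 14.4% of all genes. The median difference was −0.033, beside −0.054 over all genes.

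Genes of ligand storage and activation numbered 14 measured, 6 higher and 8 lower by their means, beside 60.5% of all genes lower. Their median was −0.067, with none at an unadjusted p under 0.05, beside 8.15% of all genes. Itgav, the integrin chain that releases active TGF-beta together with a beta partner, measured 6.26, 7.49 and 8.19 in control and 8.37, 8.12 and 8.47 in RANKL-deficient cells. Control array 1 was far below the other 5 arrays, and control array 3 lay among the RANKL-deficient ones. The difference was 1.01 (SE 0.45; limma, unadjusted p = 0.0571). Thbs1, a matrix protein that can activate the latent complex, differed by −0.34 and Lrrc32, the GARP protein that anchors latent TGF-beta on the cell surface, by −0.33.

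Among 14 other receptors and coreceptors, 11 were lower and 3 higher, beside 60.5% of all genes lower, with a median of −0.12. An unadjusted p under 0.05 was found for 2, both lower, beside 3.9% of all genes lower. Acvrl1, a type I receptor best known from endothelium, measured 5.33, 5.07 and 5.12 in control and 4.57, 4.91 and 4.92 in RANKL-deficient cells. Its groups did not overlap, and the difference was −0.37 (SE 0.15; limma, unadjusted p = 0.0428). Tdgf1, a coreceptor for Nodal, differed by −0.51 (unadjusted p = 0.0461) and Bambi, a decoy receptor that lacks the kinase, by −0.46 (unadjusted p = 0.0755).

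The SMADs of the bone morphogenetic protein branch, inhibitory SMADs and SMAD partners had small differences, from −0.28 to 0.18 over 13 measured genes, and none at an unadjusted p under 0.05. Ep300, a histone acetyltransferase that SMADs recruit, differed by −0.28, the SMAD partner Foxh1 by −0.25 and Smad9 by −0.18. These 3 genes, named for the smallest p of the list, were also those of the 13 whose groups did not overlap. All 3 were lower, beside 9.08% of all genes separated in that direction. Smad7, the inhibitory SMAD that TGF-beta itself induces, was read for comparison with Skil after its values were seen. It measured 6.31, 7.01 and 6.38 in control and 6.82, 6.36 and 6.43 in RANKL-deficient cells, with a difference of −0.029 (SE 0.23).

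Of 17 negative regulators and enzymes acting on the receptors or SMADs, 11 were higher and 6 lower, beside 39.5% of all genes higher. Their median difference was 0.11. The list was not split by whether a gene opposes or aids signalling, so the counts and the median give no direction for the pathway. Only 1 of the 17 had a mean level below the median gene, and all genes above that level had a median difference of 0.033. At an unadjusted p under 0.05 there were 2 higher and 2 lower, beside 4.25% of all genes higher and 3.9% lower. Tgif2, a homeodomain co-repressor of SMADs, measured 6.40, 6.47 and 6.46 in control and 6.07, 6.11 and 6.01 in RANKL-deficient cells. Both groups were tight and apart, with a difference of −0.38 (SE 0.11; limma, adjusted p = 0.517). Fkbp1a, which encodes FKBP12, a protein that holds the type I receptor inactive, measured 8.41, 8.45 and 8.19 in control and 8.90, 8.75 and 8.66 in RANKL-deficient cells. These groups were also separate, with a difference of 0.42 (SE 0.14; limma, adjusted p = 0.546). Usp15, a deubiquitinase that acts on the receptor complex and on SMADs, differed by 0.69 (SE 0.25) with overlapping groups. Usp11, another deubiquitinase of the list and outside the rule for named genes, differed by −0.51 (SE 0.21).

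In the SMAD-independent branch, 2 of 12 measured genes had an unadjusted p under 0.05, in opposite directions, beside 8.15% of all genes. Traf6, the ubiquitin ligase that links the receptors, and also RANK, to the kinase TAK1, measured 4.82, 6.30 and 6.15 in control and 6.55, 6.67 and 6.74 in RANKL-deficient cells. Control array 1 was far below the rest, and the difference was 0.89 (SE 0.37; limma, unadjusted p = 0.0461). Tab3 and Tab2, adaptors of TAK1, differed by −0.90 (SE 0.34) and −0.25 (SE 0.12), without overlap of the groups in either gene.

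Genes known to respond to TGF-beta in one cell type or another had differences of both signs. Of 23 measured, 10 were higher and 13 lower, beside 60.5% of all genes lower, with a median of −0.049. At an unadjusted p under 0.05, 2 were higher and 0 lower, beside 4.25% of all genes higher and 3.9% lower. P2rx7, an ATP-gated channel, measured 7.98, 8.10 and 8.16 in control and 9.03, 8.77 and 8.41 in RANKL-deficient cells. The groups were separate, with a difference of 0.65 (SE 0.18; limma, adjusted p = 0.458). Myc, a growth regulator that TGF-beta represses in epithelium, differed by 0.87 (SE 0.31), and Cdkn2b, a cell cycle inhibitor that TGF-beta induces there, by −0.30 (SE 0.13). Itgae, the integrin chain CD103 that TGF-beta induces in T cells, was picked out after its values were seen and differed by −0.049 (SE 0.17).

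**Figure D4:**
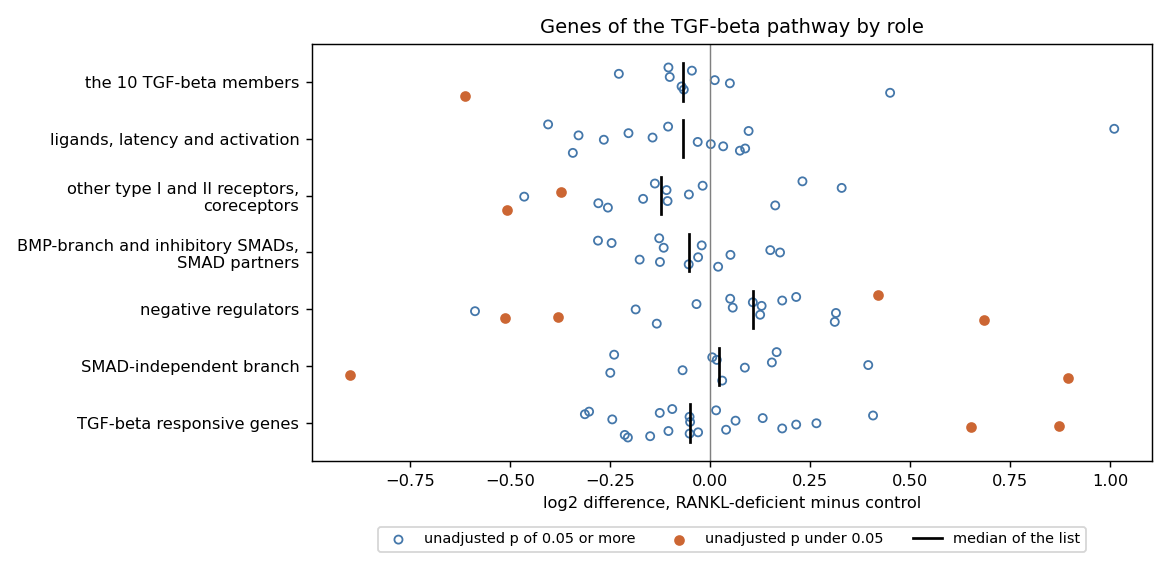
Log2 difference, RANKL-deficient minus control, of each measured gene (points, spread vertically for display) by role in the TGF-beta pathway; filled points had an unadjusted p under 0.05 in limma and bars are list medians. List medians lie between −0.12 and 0.11, and no gene shown passed the adjusted threshold. The list of negative regulators also holds other enzymes acting on the receptors or SMADs.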

How the data were processed

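Gene expression of 3 control and 3 RANKL-deficient samples was measured on 1 array each. Per the labels' protocols, 2 ng of total RNA went into a NuGEN amplification for small inputs. The authors deposited log2 expression of 35556 probe sets. The submitters' processing notes name RMA and Affymetrix Expression Console. Versions, settings and the genome build remain not given in the sources used here. RMA gives arrays similar distributions, so a shift of all genes would not be seen, and the number of arrays limits the precision. The SD over genes still ran from 1.86 to 2.01 between arrays.

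Probe sets with 1 symbol (21789; 1621 had several and 12146 none) were named through the platform annotation and updated by Entrez identifier against RefSeq (GRCm38.p6, used for names). The probe set with the highest mean stood for each of 999 genes with several, leaving 19938 genes, and no filter on low values was applied. Groups and replicate numbers came from the sample titles. Groups were compared two-sided by limma 3.58.1 (R 4.3.3) through lmFit and eBayes without a replicate block, adjusted by Benjamini-Hochberg over all genes at 0.05, and members also by an exact permutation test. The fit was tested on simulated data. The labels state no pairing beyond the replicate numbers, so same-numbered samples were not treated as pairs. Named genes were all members, the 3 of each pathway list with the smallest unadjusted p, and the 5 genes most correlated with the member of smallest p and with that of highest mean. Marker lists covered ILC3 and lymphoid tissue inducer cells, ILC1 and NK cells, ILC2, T cells, B and plasma cells, myeloid cells, mast cells and granulocytes, epithelium, and stroma and endothelium. The members and lists were chosen with earlier results of these data known. Alternatives covered scaling, filtering, probe set choice, eBayes options, array weights, the replicate block and left-out arrays. Promoter sequences were found for 5 of 10 members. Some planned genes are not reported here.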

Additional observations from a re-analysis of the deposited data

How the results depend on the processing

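Over 16 alternatives, 0 members passed the adjusted threshold, and 140 of 158 member values kept their sign. The replicate block, the level filter, the probe set choices and the eBayes options leave a member's difference unchanged by construction. Their signs were thus fixed in advance and say nothing on stability. Tgfb2 and Tgfb3 could not be read among genes above the median. The count over all genes, 1, became 0 with the replicate block, with all probe sets tested and without control arrays 1 and 2, became 2 (Ccr2 and Cd36) with eBayes trend and robust options, and ranged from 0 to 1 without 1 array. The median of the members was 0.015 without control arrays 1 and 2 and 0.041 without control array 1, where 6 of 10 members were higher; its range without 1 array was −0.11 to 0.041.

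Signs turned for 7 members, all with small differences. Tgfb1 turned to −0.064 with quantile normalization, −0.082 with cyclic loess and −0.094 with array weights. Tgfb3 turned to 0.035 with cyclic loess and 0.12 without control arrays 1 and 2. Tgfbr1 turned to 0.14 with array weights, and Smad2 to 0.081 with array weights and 0.12 without control arrays 1 and 2. Leaving out 1 array gave ranges of −0.19 to 0.18 for Tgfb1, −0.024 to 0.11 for Tgfb2, −0.17 to 0.086 for Tgfb3, −0.34 to 0.16 for Tgfbr1, −0.22 to 0.17 for Smad2, −0.30 to 0.058 for Smad4 and −0.24 to 0.019 for Skil; the cause was not tested. With array weights Tgfbr2 reached an unadjusted p of 0.0395 (limma, adjusted p = 0.437), and without control arrays 1 and 2, which leaves 1 control array assumed to vary like the other group, Tgfb1 reached 0.0440 (limma, adjusted p = 0.783).

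The replicate block changed no call of a member. Same-numbered samples had correlations of deviations of −0.023, 0.050 and 0.027 across genes. RANKL-deficient samples 2 and 3 correlated best with their own number and sample 1 did not. All of these correlations were small, so they do not decide whether samples were paired. The median difference of all genes moved from −0.054 to −0.002 across the scalings. With 3 arrays a group, a difference the size of the SE of a member, 0.13 to 0.29, is not detectable.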

Other observations

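None of the marker lists had a member past the adjusted threshold (limma). Of 11 measured ILC3 and lymphoid tissue inducer markers, 7 were higher and 4 lower in RANKL-deficient cells, with a median difference of 0.13. The 7 measured B and plasma cell markers had a median difference of −0.16, the 11 macrophage, monocyte and dendritic markers −0.12 and the 5 ILC2 markers −0.13. All 6 mast cell and granulocyte markers were lower, with a median of −0.23, and 5 of them lay below the median of all genes. Epithelial markers were lower in 9 of 11, with a median of −0.23. Lower means were found for 60.5% of all genes, a share not matched for mean level. With all genes in 4 equal bins by mean level, the median difference was −0.103 in the lowest bin and −0.099 in the next.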
